A study of Mus musculus with 10 samples.

Results

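The expression of 10 genes of the TNF receptor superfamily was described in AtT20 cells with and without knockdown of *Creb3l1*, a gene of a membrane-bound transcription factor of the CREB3 family. The genes were *Tnfrsf12a*, *Tnfrsf1a*, *Tnfrsf1b*, *Tnfrsf10b*, *Tnfrsf11a*, *Tnfrsf19*, *Tnfrsf21*, *Tnfrsf25*, *Fas* and *Ltbr*, which are 10 of the 53801 genes in the count table. They were selected on a rule that listed them by symbol and stated that *Tnfrsf12a* falls with the knockdown, so the difference between the lines had a part in their choice. Their values are therefore given as a description. Their results in the test of all genes are quoted, and no conclusion is drawn from them. AtT20/D16v-F2 is a line of mouse corticotroph tumour cells, which make pro-opiomelanocortin (POMC), the precursor of adrenocorticotrophic hormone. Both groups carried a lentiviral short hairpin RNA (shRNA) vector as stable cell lines and were grown in the same serum-containing medium with no further treatment in the labels. The control line held a non-targeting shRNA (5 libraries) and the knockdown line an shRNA against *Creb3l1* (5 libraries). Each shRNA was represented by 1 line here, so effects of *Creb3l1*, of the single shRNA and of the line itself cannot be told apart. The study calls its replicates biological, and the labels do not say how the 5 libraries of a line were separated, so the error given is the spread between these libraries.

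Receptors of the TNF superfamily are transmembrane proteins with cysteine-rich repeats outside the cell, and they are clustered by trimeric ligands of the TNF family. A part of the family (*Tnfrsf1a*, *Tnfrsf10b*, *Tnfrsf21*, *Tnfrsf25* and *Fas* among the genes here) carries a cytoplasmic death domain, which recruits adaptors such as TRADD and FADD and can activate caspases. The others bind TRAF proteins directly, and both kinds can lead to NF-kB and JNK signalling. In the pituitary, TNF is known as a cytokine that alters hormone release.

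Reads counted on genes were between 17420698 and 22205107 per library, and 14336 genes passed the filter on low counts. Counts were scaled by edgeR's TMM factors to the mean effective library size and are called normalised counts. The lines were separated along the first principal component (57.5% of the variance). Non-targeting replicate 3 had the lowest TMM factor, 0.953, where the other 9 libraries reached 1.01. A gene is called where its adjusted p in edgeR was under 0.01. *Creb3l1* was at 3689 ± 148 (SD, n = 5) normalised counts in the control line and 1090.0 ± 59.2 (SD, n = 5) in the knockdown line. The 6 corticotroph markers were all detected, and their summed normalised count was 150424 to 161539 in control and 108547 to 115408 in knockdown libraries, with *Pomc*, *Tbx19* and *Pcsk1* lower, *Pitx1* and *Neurod1* higher and *Crhr1* not called. The 5 hormone genes of other pituitary cells summed to at most 1.88 normalised counts in any library. Of 6 immune markers *Ptprc* and *Cd3e*, among others, had no count, and the sum, 34.2 to 51.9 in control and 24.6 to 38.2 in knockdown libraries, was nearly all *Cd68*. Of 4 endothelial markers *Cdh5* and *Kdr* had no count, and the sum was 16.95 to 25.7 against 7.49 to 11.0. *Pecam1* was called lower in the knockdown line, at 13.8 ± 3.20 against 6.41 ± 1.39 normalised counts (SD, n = 5 each, edgeR adjusted p = 0.0063). *Tek* was not tested. The 6 fibroblast markers summed to 844 to 1227 against 986 to 1776, with none called. The part of these differences in the values below was not tested.

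*Tnfrsf12a* encodes Fn14, a small receptor without a death domain that binds the ligand TWEAK and signals through TRAF proteins. The gene (ENSMUSG00000023905) lies at chr17:23675445-23677468 of GRCm38 on the minus strand. Its normalised counts in the control libraries were 626, 584, 556, 552 and 517. In the knockdown libraries they were 349, 389.6, 368, 419.7 and 364. The lines did not overlap and were separated by a gap between 419.7 and 517. The mean was 567 ± 40.6 (SD, n = 5) in the control and 378 ± 27.4 (SD, n = 5) in the knockdown line, which is 66.7% of the control level. The log2 fold change, always given here as knockdown minus control, was -0.58 ± 0.060 (standard error, SE). With each library left out in turn it was between -0.62 and -0.54. In these bulk samples fewer cells with the transcript and less transcript per cell cannot be told apart.

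The start region of *Tnfrsf12a* is shown because it is the receptor whose fall is part of the rule. It spans chr17:23677400-23677699 of GRCm38.p6 on the minus strand and was taken from RefSeq, with 250 bases before and 50 from the annotated start. Letters would be capitals where they matched a motif searched for on both strands. None did.
Tnfrsf12a: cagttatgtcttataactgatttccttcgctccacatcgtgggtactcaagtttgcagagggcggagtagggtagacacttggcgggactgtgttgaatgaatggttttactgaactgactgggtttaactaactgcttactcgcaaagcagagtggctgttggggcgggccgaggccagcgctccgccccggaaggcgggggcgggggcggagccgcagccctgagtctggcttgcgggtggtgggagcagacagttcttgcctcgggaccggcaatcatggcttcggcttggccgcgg

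The motifs were GACGTG, the G-box core that the study examined in the *Pcsk1* promoter, CACGTG, the palindromic G-box, TGACGTCA, the full cAMP response element, and the NF-kB consensus of 10 bases. RefSeq start regions were matched to 9 of the 10 receptor genes, with 11 windows in all, and *Tnfrsf10b* had no entry. GACGTG was found in 0 of the 9 genes, against 7.15% of all 27025 genes with a window, tested or not. TGACGTCA was found in 0 of the 9, against 2.03% of all genes with a window. CACGTG was found in 4 of the 9 (*Tnfrsf19*, *Tnfrsf21*, *Fas* and *Ltbr*), against 8.09% of all genes with a window. Of these 4, *Tnfrsf21* and *Ltbr* were tested and not called, and *Tnfrsf19* and *Fas* were not tested. The NF-kB consensus was found in 1 of the 9, *Tnfrsf25*, against 9.55%. Counted by window over all 32851 windows, these motifs were found in 6.38% (GACGTG), 1.79% (TGACGTCA), 7.15% (CACGTG) and 8.46% (NF-kB consensus). A match is a description of the letters in these windows only.

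*Tnfrsf1b* encodes TNFR2, the second receptor for TNF, which lacks a death domain. It lies at chr4:145213463-145246870 on the minus strand. Its normalised counts were 779, 671, 691, 679.8 and 759 in control libraries and 691, 636, 669, 602 and 585 in knockdown libraries. The lines overlapped through the highest knockdown library, at 691. The log2 fold change was -0.17 ± 0.050 (SE), from 716 ± 49.4 to 637 ± 44.3 (SD, n = 5 each). It was among the genes with an adjusted p under 0.01, but the call was lost without non-targeting replicate 1 (-0.14) or 5 (-0.15), without *Creb3l1* shRNA replicate 4 (-0.15) or 5 (-0.14), and in the fit without robust shrinkage.

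*Tnfrsf11a* encodes RANK, the receptor of the ligand RANKL. It lies at chr1:105780718-105847981 on the plus strand and was called higher in the knockdown line, as were 20.6% of all genes tested. Its normalised counts were 43.3, 30.7, 47.7, 28.2 and 29.2 in control libraries. In knockdown libraries they were 62.5, 49.2, 39.4, 61.6 and 58.2. The lines overlapped through the knockdown library at 39.4, which lay below 2 of the control libraries. The log2 fold change was 0.62 ± 0.18 (SE), and the raw counts behind it were only 29 to 68 per library. The call was lost without non-targeting replicate 2 (0.58), 4 (0.54) or 5 (0.56) and without *Creb3l1* shRNA replicate 1 (0.57) or 4 (0.57).

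Of the death-domain receptors, *Tnfrsf1a* (TNFR1, the receptor through which TNF engages TRADD) lies at chr6:125349362-125362484 on the plus strand. It was at 1499, 1579, 1644, 1608 and 1586 normalised counts in control and 1598, 1749.9, 1682, 1621 and 1647 in knockdown libraries, with overlap between the lines. Its log2 fold change was 0.068 ± 0.034 (SE), and it was called only with GC content and transcript length as offsets (0.14). *Tnfrsf21* (death receptor 6) lies at chr17:43016555-43089189 on the plus strand. It was at 1298 ± 54.3 and 1299.6 ± 52.9 normalised counts (SD, n = 5 each), a log2 fold change of 0.00056 ± 0.037 (SE), and both lines covered nearly the same range (1229 to 1381 and 1223 to 1363). *Tnfrsf25* (death receptor 3) lies at chr4:152115934-152120119 on the plus strand. It ranged from 85.4 to 155 in control and 82.7 to 131 in knockdown libraries, with medians of 99.9 and 93.8, a log2 fold change of -0.056 and a standard error of 0.17. *Tnfrsf10b* (the mouse receptor for the ligand TRAIL) lies at chr14:69767472-69784411 on the plus strand. It ranged from 73.4 to 97.1 and from 72.6 to 111, with a log2 fold change of 0.025 and a standard error of 0.13. For the last 3 receptors the difference was smaller than its standard error and its sign depended on the libraries used.

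*Fas* (chr19:34290666-34327772, plus strand) had 0 counts in all 10 libraries. A count of 0 in the 5 control libraries allows up to 3 counts, which correspond to 0.0146 in FPKM, the level per exon length. This limit covers counting error only.

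*Ltbr*, the lymphotoxin beta receptor, has no death domain and leads to the non-canonical NF-kB branch. It lies at chr6:125306571-125313885 on the minus strand, and was at 1523 ± 94.7 and 1483 ± 94.1 normalised counts (SD, n = 5 each), a log2 fold change of -0.041 ± 0.043 (SE). *Tnfrsf19* (TROY; chr14:60963875-61046490, minus strand) had 2 to 12 raw counts per library and 79 in all, and did not pass the filter on low counts. Its normalised counts were 5.03, 6.36, 2.45, 11.3 and 11.3 in control and 8.27, 10.7, 9.57, 4.74 and 8.18 in knockdown libraries, with the knockdown range inside the control range.

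**Figure D1:**
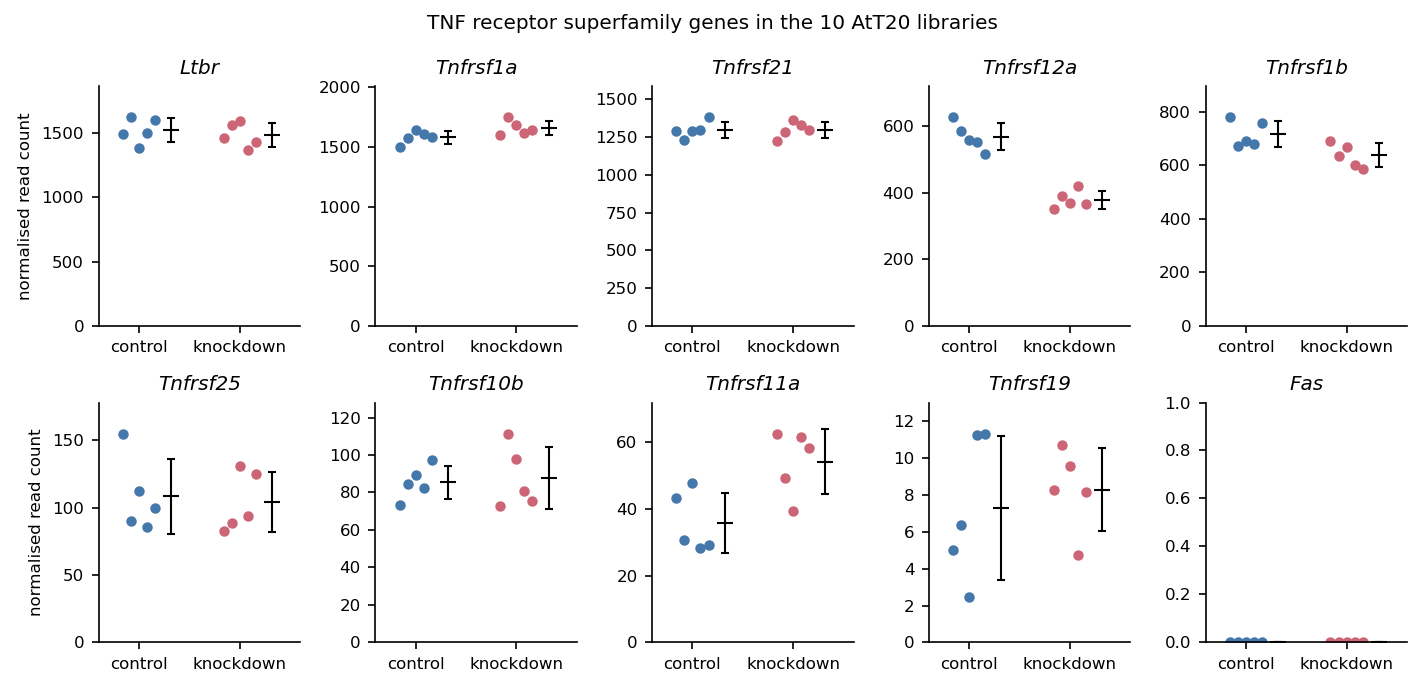
Normalised read count (vertical axes from 0) of the 10 receptor genes in each control and knockdown library (points, in replicate order), with the mean and SD of the 5 libraries of a line (bars). *Tnfrsf12a* is the gene with no overlap between the lines, and *Fas* is at 0 in every library.

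Of the 10 genes, 9 had a count in at least 1 library and 8 passed the filter. Of these 8, 3 (37.5%) were called (edgeR's quasi-likelihood test, adjusted by Benjamini and Hochberg over all genes tested), and 40.7% of all genes tested were. Without non-targeting replicate 3 the number was also 3, and it was 1 without non-targeting replicate 5 or without *Creb3l1* shRNA replicate 4. One direction at a time, 1 of the 8 was called higher (20.6% of all genes) and 2 lower (20.1%). At an adjusted p under 0.05 the number was again 3, with 50.3% of all genes called. A change of at least 1.5-fold with an adjusted p under 0.01 was found for 1, *Tnfrsf11a*, and for 7.73% of all genes. *Tnfrsf12a*, at a log2 fold change of -0.584, fell just short of 1.5-fold. The lines did not overlap for 1, *Tnfrsf12a*, and for 36% of all genes. The median log2 fold change of the 8 was -0.020, and that of all genes tested was -0.0025. Nothing is read from these counts, since the rule used the same comparison. The exons of none of the 10 genes overlap those of another gene in the GENCODE annotation.

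Levels between genes were compared per length, as counts per kilobase of annotated exon scaled to the effective library size (FPKM). In the control line *Ltbr* and *Tnfrsf1a* were highest, at 31.9 ± 1.98 and 30.1 ± 1.02 FPKM (SD, n = 5), and their libraries overlapped. They were above 87.9% and 86.9% of the genes tested. *Tnfrsf21* followed at 15.6 ± 0.651 and *Tnfrsf12a* at 14.5 ± 1.04 FPKM, again with overlap. *Tnfrsf1b* was at 9.25 ± 0.638 FPKM, below every control value of *Tnfrsf12a*. From there the order was *Tnfrsf25* (2.35 ± 0.604 FPKM), *Tnfrsf10b* (0.773 ± 0.079), *Tnfrsf11a* (0.295 ± 0.074), *Tnfrsf19* (0.076 ± 0.041) and *Fas* at 0, with no overlap between neighbours. *Tnfrsf25*, *Tnfrsf10b* and *Tnfrsf11a* were thus above only 28.2%, 13.5% and 4.85% of the genes tested.

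In the knockdown line *Tnfrsf12a* was at 9.65 ± 0.698 FPKM (SD, n = 5). It no longer overlapped *Tnfrsf21* (15.6 ± 0.635) and did overlap *Tnfrsf1b* (8.22 ± 0.573). Its share of the summed FPKM of the 10 genes was 13.8% in the control and 9.68% in the knockdown line. The sum itself was 104.8 ± 1.70 and 99.7 ± 3.50 FPKM, and the libraries of the lines overlapped. The order rests in part on the length used. With the longest transcript in place of all exons *Tnfrsf12a* was at 28.4 FPKM, between *Ltbr* (35.6) and *Tnfrsf21* (17.6), and *Tnfrsf1a* was highest at 36.2.

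**Figure D2:**
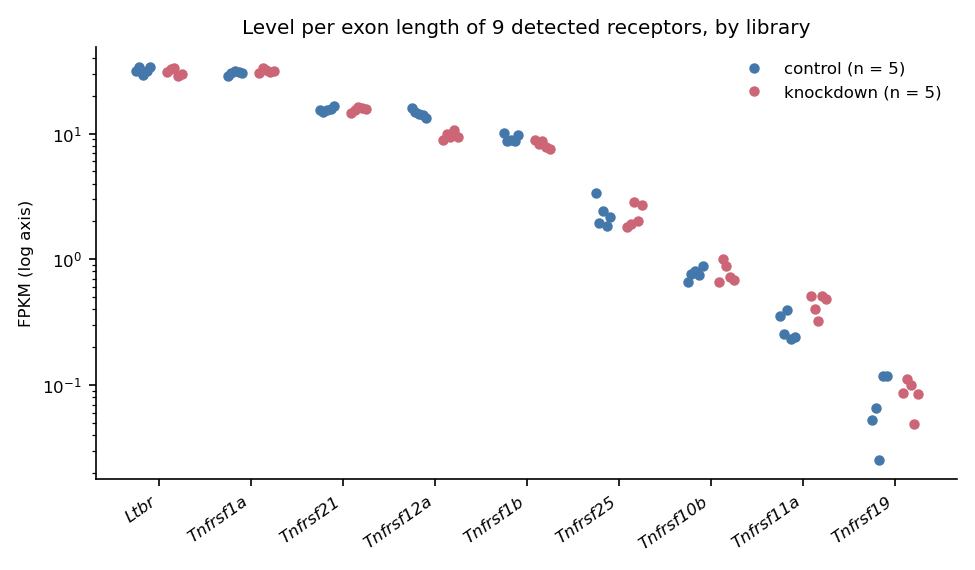
FPKM on a log axis of the 9 receptor genes with counts, by library (points), in the order of the control mean. Levels run from about 30 FPKM for *Ltbr* and *Tnfrsf1a* to under 0.12 for *Tnfrsf19*, and *Tnfrsf12a* lies apart between the lines.

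The genes most like *Tnfrsf12a* across the 10 libraries were found by the root mean square difference of log2 normalised counts, each centred on the control mean, among the 11000 genes whose mean normalised count was 100 or more. They were *Krt18*, a keratin gene (0.073), *Tdrp* (0.074), *Mpst*, a mercaptopyruvate sulphurtransferase gene (0.074), *Zbtb4*, a zinc finger gene (0.075), and *Qsox1*, a sulphydryl oxidase gene of the secretory pathway (0.077). *Krt18*, for one, was at 2152 ± 115 in the control and 1474 ± 90.1 (SD, n = 5 each) normalised counts in the knockdown line, a log2 fold change of -0.55. The log2 fold changes of the 5 genes were between -0.61 and -0.55. With this measure the nearest genes must change by nearly as much as *Tnfrsf12a*, whose fall was part of the rule. Their falls are therefore no separate result. Of the other receptor genes compared, the nearest was *Tnfrsf1b*, at 0.32, in place 2189 of the 11000.

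Among 18 further genes of the receptor superfamily, 4 had no count and 10 were tested. Of these 10, 5 were called in edgeR (1 higher, 4 lower), and the median log2 fold change of the 10 was -0.39. Of all genes tested 40.7% were called, 20.6% higher and 20.1% lower. The largest fall was in *Tnfrsf9*, the costimulatory receptor 4-1BB of lymphocytes, which had few counts and was chosen after its values were seen. Its normalised counts were 35.2, 29.7, 39.1, 34.7 and 44.3 in control and 7.35, 7.49, 6.38, 8.53 and 9.09 in knockdown libraries. The lines were far apart. Of the 6 immune markers 3 had no count, and *Cd68*, which made up nearly all of their sum, was at 39.7 ± 7.70 and 30.2 ± 5.90 normalised counts (SD, n = 5 each) and was not called (log2 fold change -0.39). The part of these cells in the result was not tested. *Tnfrsf9* had a log2 fold change of -2.21 and a standard error of 0.25. It passed the filter on low counts only through the control libraries, where it was high. Its lowest raw count was 6, so the fit with a minimum of 10 counts in each library left it out.

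*Tnfrsf22* and *Tnfrsf23*, decoy receptors for TRAIL in the mouse, fell by 0.60 and 0.73 in log2 units (edgeR adjusted p = 3.5e-09 and 0.00011). *Tnfrsf22* was at 304 ± 16.6 and 200.2 ± 7.74 and *Tnfrsf23* at 67.1 ± 11.6 and 40.2 ± 3.70 normalised counts (SD, n = 5 each). They are closely related neighbours of *Tnfrsf26* on chromosome 7, so reads could have been split between them. *Relt*, an orphan receptor of the family, fell from 287 ± 17.5 to 212 ± 16.2 (log2 fold change -0.44, edgeR adjusted p = 5.3e-06). *Eda2r*, the receptor of an ectodysplasin isoform, rose from 136 ± 14.6 to 239 ± 21.4 (log2 fold change 0.82 ± 0.089 SE, edgeR adjusted p = 2.7e-10). Its control libraries were between 111 and 147 and its knockdown libraries between 212 and 264. *Tnfrsf4*, *Tnfrsf14*, *Tnfrsf18*, *Tnfrsf26* and *Ngfr* were tested and not called.

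**Figure D3:**
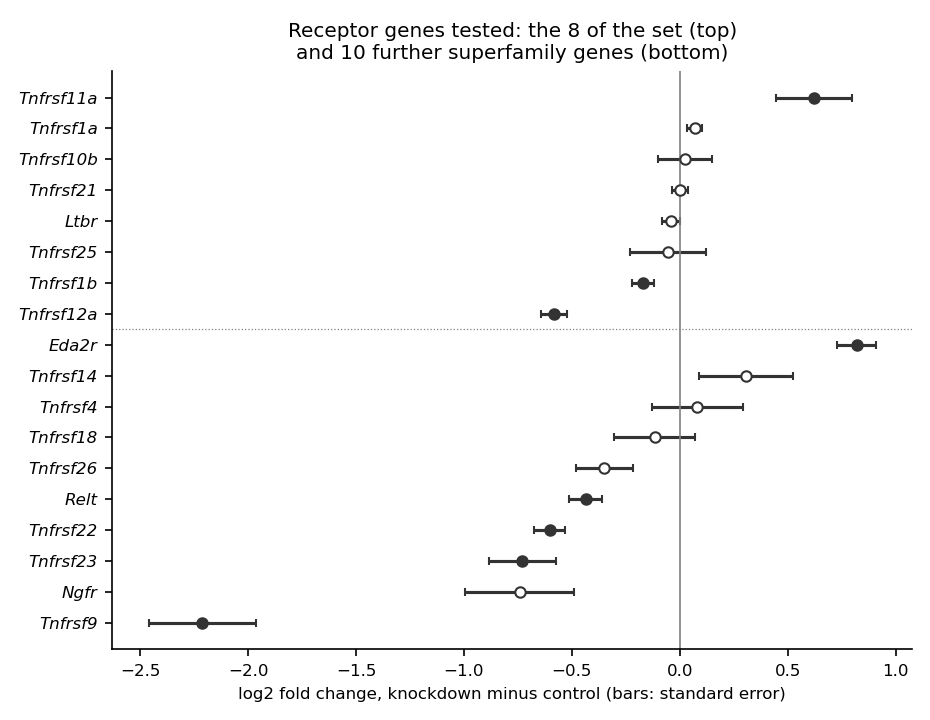
Log2 fold change (horizontal axis, knockdown minus control) with its standard error for the 8 tested receptor genes of the set, above the dotted line, and 10 further superfamily genes below it. Filled points have an adjusted p under 0.01. Values run from -2.21 (*Tnfrsf9*, which had few counts) to 0.82 (*Eda2r*).

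Ligands of the receptors were scarce in these cells. Of 18 genes of the ligand superfamily 9 had no count and 5 were tested. Of the 5, 3 were called, 1 higher and 2 lower, where 40.7% of all genes tested were called. *Tnfsf12*, which encodes TWEAK, the ligand of the *Tnfrsf12a* product, was the only ligand paired with a receptor of the set that was tested. Its normalised counts were 75.4, 61.5, 101.5, 81.7 and 83.0 in control and 68.0, 49.2, 62.8, 41.7 and 80.9 in knockdown libraries, so the lines overlapped. The log2 fold change was -0.40 ± 0.15 (SE, edgeR adjusted p = 0.029), and it was called without *Creb3l1* shRNA replicate 5 (-0.53). Of its exon bases 48.3% are shared with the readthrough gene *Tnfsfm13*, so its counts are uncertain, as are those of *Tnfsf13* (60.0% shared).

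*Tnf*, *Tnfsf11* (RANKL), *Tnfsf14* (LIGHT) and *Tnfsf15* (TL1A) had 0 counts in all libraries. *Lta* and *Ltb*, the lymphotoxin genes, had at most 4 and 6 raw counts in a library. *Fasl* had at most 3 and *Tnfsf10* (TRAIL) between 1 and 11. The ligands called were *Tnfsf9*, the ligand of 4-1BB, which rose from 118 ± 10.9 to 165 ± 21.7 (log2 fold change 0.47, edgeR adjusted p = 0.00012), and *Tnfsf13* and *Eda*, which fell by 1.02 and 0.53 on the log2 scale. For *Tnfsf13* and *Eda* the lines overlapped. *Tnfsf13* had few counts, with normalised counts of 19.1 to 31.8 in control and 8.18 to 19.9 in knockdown libraries. Its lowest raw count was 9, so the fit with a minimum of 10 counts in each library left it out. That fit called 2 ligands. *Tnfsf9* shares 14.9% of its exon bases with a gene on the opposite strand.

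Downstream of the receptors, genes were called in both directions. Of 20 genes of receptor-proximal adaptors and ubiquitin enzymes 19 were tested. In the knockdown line 3 were higher and 6 lower, and the median log2 fold change of the 19 was -0.025. Those called were 47.4% of the tested genes of the list, near the 40.7% of all genes tested. *Tnfaip3* encodes A20, a ubiquitin-editing enzyme that ends NF-kB signalling from TNF receptors. It was at 382, 375, 372, 395 and 411 normalised counts in control and 206, 223, 205, 202 and 201 in knockdown libraries, with a wide gap between the lines. The log2 fold change was -0.90 ± 0.068 (SE, edgeR adjusted p = 1.0e-14). *Tnip1*, whose product binds A20, fell from 1522 ± 77.6 to 1092 ± 39.8 (SD, n = 5 each), a log2 fold change of -0.48. *Traf3*, *Traf5*, *Tank* and *Birc3* were also lower, by between 0.14 and 0.61.

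*Cyld*, a deubiquitinase of the same pathway, and *Birc2*, which encodes the ubiquitin ligase cIAP1, rose by 0.20 and 0.19 in log2 units (edgeR adjusted p = 0.00034 and 3.2e-05). With GC content and transcript length as offsets *Cyld* was at 0.067 and no longer called. *Traf4* rose by 0.18. The adaptors that sit on the receptors, *Tradd* (log2 fold change 0.028), *Fadd* (-0.091), *Ripk1* (0.016) and *Traf2* (-0.11), were not called.

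In the death branch 11 of 12 genes were tested, 5 were higher and 1 lower, with a median log2 fold change of 0.11. Those called were 54.5% of the tested genes of the list, against 40.7% of all genes tested. *Cflar*, which encodes the caspase 8 inhibitor cFLIP, rose from 259 ± 19.8 to 417 ± 24.6 normalised counts (SD, n = 5 each), a log2 fold change of 0.69 ± 0.068 (SE, edgeR adjusted p = 2.7e-11). Its control libraries were between 227 and 279 and its knockdown libraries between 385 and 447. *Xiap*, a caspase inhibitor gene, and *Faf1* were higher by 0.33 and 0.13. *Mlkl*, the effector gene of necroptosis, was lower at -0.24 (edgeR adjusted p = 0.0031), and its call was lost without non-targeting replicate 1 (-0.22). *Casp8* was not called (0.11), and *Ripk3* had no count.

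In the JNK branch 6 of 7 genes were called, 4 higher and 2 lower, with a median of 0.18. Of all genes tested 40.7% were called. *Map3k5*, which encodes the kinase ASK1, rose from 354 ± 16.9 to 493 ± 23.0 (log2 fold change 0.48, edgeR adjusted p = 4.5e-09). *Mapk8*, which encodes JNK1, rose by 0.38 (edgeR adjusted p = 9.4e-12). *Mapk9*, which encodes JNK2, and *Map3k1* fell by 0.24 and 0.17. None of the 7 changed by 1.5-fold. Of 5 genes of receptor shedding 1 was called (20%, against the 40.7% of all genes tested). It was *Adam10*, a membrane protease gene, at 0.19 (edgeR adjusted p = 4.4e-06). *Adam17*, which encodes the protease that sheds TNF and its receptors, was not called (0.095).

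Of 16 genes of NF-kB kinases and factors all were tested, 0 were higher, 6 were lower and 10 were not called. The median was -0.032. The 6 were 37.5% of the list, where 40.7% of all genes tested were called and 20.1% were lower. *Map3k7*, *Chuk*, *Ikbkb* (kinase genes), *Ikbkg* (kinase complex) and the subunit genes *Nfkb1* and *Rela* had log2 fold changes between -0.041 and 0.047. None of them was called. The kinase gene *Map3k14* was at -0.24 ± 0.079 (SE) and just missed the threshold (edgeR adjusted p = 0.01004). The 6 lower genes were *Relb*, *Nfkb2* and *Rel*, subunits of NF-kB, and *Nfkbia*, *Nfkbib* and *Nfkbie*, its inhibitors. *Relb* was at 137, 167, 159, 142 and 133 normalised counts in control and 54.2, 55.7, 60.6, 51.2 and 64.5 in knockdown libraries. No library of one line came near the other, with a log2 fold change of -1.36 and a standard error of 0.11 (edgeR adjusted p = 1.9e-13). *Nfkbia*, which encodes IkB alpha, fell from 568 ± 31.9 to 327 ± 24.1 (SD, n = 5 each), a log2 fold change of -0.80 (edgeR adjusted p = 1.1e-14). With GC content and transcript length as offsets 10 genes of this list were lower and 0 higher.

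**Figure D4:**
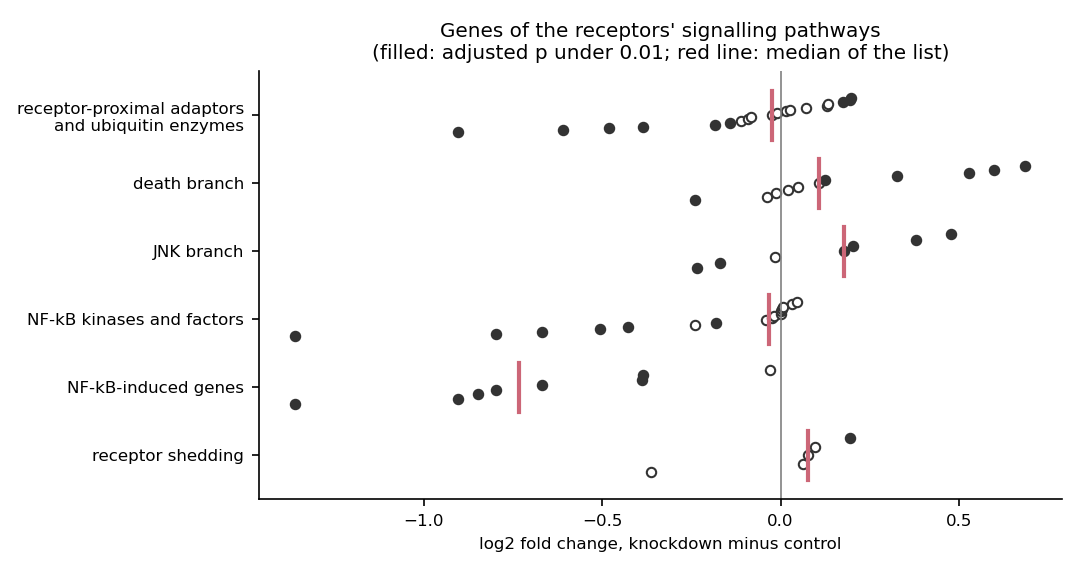
Log2 fold change (horizontal axis, knockdown minus control) of each tested gene of 6 pathway lists, with the list's median as a red line. Filled points have an adjusted p under 0.01. The medians run from -0.73 for the NF-kB-induced genes to 0.18 for the JNK branch, and some genes stand in more than 1 list.

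A list of 18 genes that NF-kB is known to induce held 6 genes of the lists above and 12 others, most of them cytokine and adhesion genes with few or no reads. Of the 18, 3 had no count and 8 were tested. Of these 8, 7 were lower (87.5%), where 20.1% of all genes tested were, and the median log2 fold change was -0.73. The list was chosen with earlier results of these data known, so nothing is read from the difference between these shares. The 7 lower genes were *Relb*, *Tnfaip3*, *Bcl3*, *Nfkbia*, *Nfkb2*, *Nfkbiz* and *Birc3*. For all 7 the lines did not overlap, as for 36% of all genes tested. The number called was 7 whichever of the 10 libraries was left out. *Nfkbia*, *Tnfaip3*, *Birc3*, *Nfkb2* and *Relb* were already given as lower in the lists above. *Bcl3*, which encodes a nuclear IkB protein, fell from 321 ± 13.8 to 179 ± 21.4 (log2 fold change -0.85, edgeR adjusted p = 4.8e-12), and *Nfkb2* from between 204 and 252 to between 119 and 172 (-0.67). *Sod2*, the mitochondrial superoxide dismutase gene, was the tested gene not called, at 1432 ± 14.0 and 1403 ± 50.4 normalised counts. The genes of this list that were lower encode feedback inhibitors and regulators of the pathway and subunits of NF-kB itself. *Nfkb2*, *Bcl3* and, from the list before, *Nfkbib* share 18.1%, 6.51% and 16.4% of their exon bases with genes on the opposite strand, so that their counts are uncertain if the counting did not use strand.

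**Figure D5:**
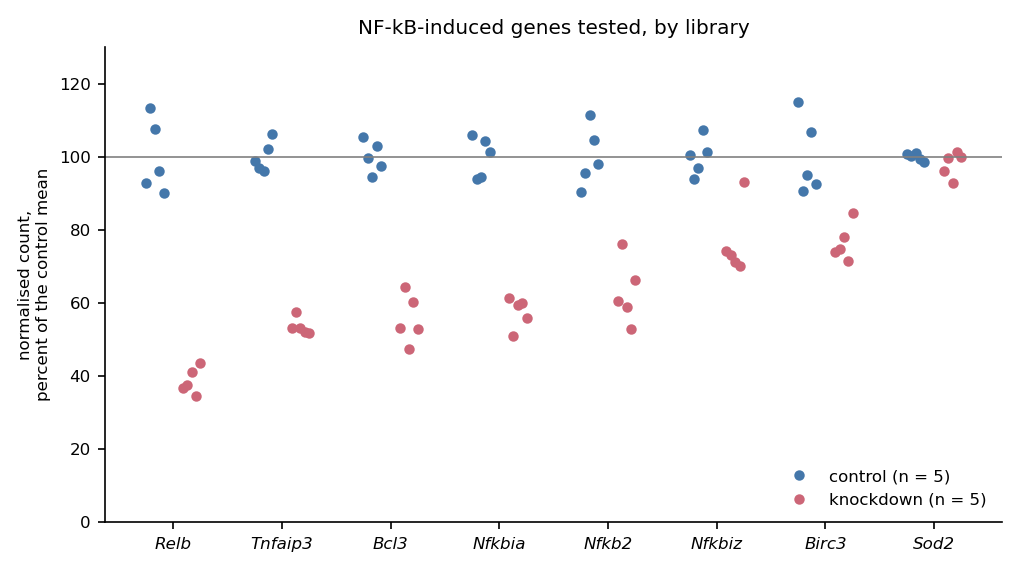
Normalised count as a percent of the gene's control mean (vertical axis from 0, line at 100) for the 8 tested NF-kB-induced genes in each control and knockdown library (points). The libraries of the lines are apart for 7 genes and mixed for *Sod2*.

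The start regions of 3 of these genes are shown, picked with their values in view. Their windows hold the NF-kB consensus and all 3 genes were lower. The same holds for *Bcl3*, which is not shown. Any part of these matches in the falls was not tested. Capitals mark the letters that matched a motif. *Nfkbia* spans chr12:55492598-55492897 on the minus strand, with 1 match that begins 29 bases before the start. *Tnfaip3* spans chr10:19015361-19015660 on the minus strand, with matches to the consensus 125 and 12 bases before the start and with GACGTG at 167 and CACGTG at 33 bases before it. *Nfkb2* spans chr19:46304487-46304786 on the plus strand, with overlapping matches 39 and 38 bases before the start and another at 11. All are from RefSeq on GRCm38.p6, and the first annotated start is shown for genes with several. The other window of *Tnfaip3* held no match to any motif, and all 3 windows of *Nfkb2* held the consensus.
Nfkbia: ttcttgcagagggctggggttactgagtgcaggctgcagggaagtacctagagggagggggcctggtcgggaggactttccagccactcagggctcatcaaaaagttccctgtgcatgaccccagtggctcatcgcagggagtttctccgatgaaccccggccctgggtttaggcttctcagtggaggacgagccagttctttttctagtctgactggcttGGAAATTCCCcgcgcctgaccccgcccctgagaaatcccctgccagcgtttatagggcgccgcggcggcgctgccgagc
Tnfaip3: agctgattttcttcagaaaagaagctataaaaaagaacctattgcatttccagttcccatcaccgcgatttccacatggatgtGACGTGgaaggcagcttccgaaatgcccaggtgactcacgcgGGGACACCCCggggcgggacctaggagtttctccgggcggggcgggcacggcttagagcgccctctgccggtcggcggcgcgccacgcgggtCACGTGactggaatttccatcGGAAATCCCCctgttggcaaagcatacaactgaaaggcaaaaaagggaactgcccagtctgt
Nfkb2: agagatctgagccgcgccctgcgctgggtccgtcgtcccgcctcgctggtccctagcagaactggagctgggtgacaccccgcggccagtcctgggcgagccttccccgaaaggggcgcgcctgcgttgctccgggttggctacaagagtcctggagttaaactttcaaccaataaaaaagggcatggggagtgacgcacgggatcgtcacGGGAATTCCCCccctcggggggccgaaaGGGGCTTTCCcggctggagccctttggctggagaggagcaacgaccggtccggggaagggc

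The consensus was found in 11 of the 14 genes of the list with a window, against 9.55% of all genes with a window. The list was drawn up from genes known to be induced through such sites, so this share is a check of the list and no result of the knockdown. Of the 7 lower genes *Nfkbia*, *Tnfaip3*, *Nfkb2* and *Bcl3* held it, *Birc3* did not, and *Relb* and *Nfkbiz* had no entry. *Sod2*, which was not called, also held it.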

How the data were processed

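RNA sequencing covered 5 libraries of each AtT20 line. Per the paper's methods and the labels, the authors selected poly(A) RNA with a stranded kit, aligned paired reads to GRCm38 (STAR) and used featureCounts with an Ensembl annotation to count reads on each gene. Whether the counting used strand is not given in the sources used here. The deposited values are read counts without normalisation. The submitters' processing notes also name FastQC and DESeq2.

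The tools were edgeR 4.0.16 and DESeq2 1.42.0 under R 4.3.3, with Python 3.11.15 for the tables. Genes were kept by filterByExpr (14336 of 53801), scaled by TMM factors and compared between lines by the quasi-likelihood test with robust shrinkage, no covariate and Benjamini-Hochberg adjustment over all genes tested. Called means an adjusted p under 0.01, the study's threshold. The standard error was taken from the log2 fold change and its F statistic. Low counts carry more counting error, which the filter and the standard errors reflect. Symbols were paired with 53620 identifiers through a GENCODE annotation of GRCm38, which also gave exon lengths.

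The receptor genes, pathway lists and marker lists were chosen with earlier results of these data known. The genes named are all receptor genes of the set, the ligands paired with them, *Creb3l1*, the 2 largest increases and 2 largest decreases of each list among called genes whose mean normalised count was 100 or more, and the 5 genes nearest to *Tnfrsf12a*. Any other gene was picked with its values in view. Some genes that this rule or the lists take are not reported here. Replicate numbers, the last digit of each title, did not pair the libraries (correlations of deviations from -0.065 to 0.040). No 2 libraries of a line agreed within sampling noise (chi-square per degree of freedom of 1.85 or more). The alternatives for the fit were DESeq2, RLE size factors, unscaled library totals, a minimum of 10 counts in each library or none, a replicate block, GC content and transcript length as offsets (14315 genes with both) and the removal of each library. Those for the threshold were 0.05 and 1.5-fold, and the longest transcript served as another length. The fit without robust shrinkage was added after the data were seen. The analysis was tested on simulated data. Other experiments of the study were not analysed here.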

Additional observations from a re-analysis of the deposited data

Results flagged for a closer look

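In 4 of 56 groups (a named gene in the 5 libraries of a line) the highest or lowest library lay apart by more than Dixon's critical share of the range, 0.71. Chance flags about 1 in 20 groups, or 2.80 here. *Tnfrsf22* was at 213.8 normalised counts in *Creb3l1* shRNA replicate 3, against 194 to 198 in the others of its line. *Eda2r* was at 110.6 in non-targeting replicate 1, against 137 to 147. *Tnfaip3* was at 223 in *Creb3l1* shRNA replicate 2, against 201 to 206. *Tnip1* was at 1659 in non-targeting replicate 1, against 1472 to 1500.5. None of the 8 tested receptor genes of the set was among them, and *Tnfrsf19* and *Fas* were not examined.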

How the results depend on the processing

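The log2 fold changes of 28 named genes were computed under 18 alternatives, 504 values in all, of which 475 kept their direction and their side of the threshold. The value of *Tnfrsf12a*, whose fall was part of its selection, ran from -0.62 to -0.46. Calls were lost in 12 values and gained in 2, named in the report. The reversals were in 4 receptor genes with changes near 0. *Tnfrsf21* was at -0.00014 with DESeq2, -6.6e-05 with RLE size factors and -0.0013 under a minimum of 10 counts in each library. With GC content and transcript length as offsets *Tnfrsf25* was at 0.034 and *Ltbr* at 0.027. Leaving out a library gave -0.071 to 0.087 for *Tnfrsf10b*, -0.016 to 0.028 for *Tnfrsf21* and -0.14 to 0.11 for *Tnfrsf25*. The cause was not tested.

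A minimum of 1.5-fold left 1108 of 5837 genes called, 1 receptor gene of the set, 1 ligand, 2 adaptors, 2 death branch genes, 3 NF-kB kinases and factors, 0 JNK genes and 0 shedding genes, because it removes smaller changes. With the offsets 10 NF-kB kinases and factors were called in place of 6. The number of receptor genes called was 1 to 3 with a library left out, and 1 without non-targeting replicate 5 or *Creb3l1* shRNA replicate 4. With the longest transcript as length, control levels were 28.4 FPKM for *Tnfrsf12a*, 36.2 for *Tnfrsf1a*, 1.33 for *Tnfrsf10b*, 17.6 for *Tnfrsf21*, 3.22 for *Tnfrsf25* and 35.6 for *Ltbr*. The replicate block called 6013 genes, 3 of them receptor genes of the set, and changed no call of a named gene. The fit without robust shrinkage called 5628 genes.

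Depth limits the low receptors. *Tnfrsf19* and most ligands could not be tested. For *Tnfrsf11a*, *Tnfrsf10b* and *Tnfrsf25* standard errors were 0.13 to 0.18 on the log2 scale, and changes of several standard errors can be missed. Without non-targeting replicate 2, for one, *Tnfrsf11a* was not called at 0.58 ± 0.19 (SE). Each shRNA was in 1 line.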
